A study of Mus musculus with 20 samples.

Results

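The contacts of *Fgf8* were read from Capture Hi-C maps of E11.5 mouse limb buds in which the DNA on its centromeric side, limb enhancers included, had been duplicated or turned round. *Fgf8* (ENSMUSG00000025219.7) lies on the minus strand of chromosome 19, from 45811288 to 45817405 in mm9, and its annotated start is at 45817405. The viewpoint was the 10 kb that hold the gene and its start, as a pair of neighbouring bins from 45810001 to 45820000, and it was chosen by position and not by its contacts. It is 1 of 36 protein-coding genes annotated in the captured interval, which runs from 44440001 to 46400000. In the wild-type map it accounts for 778 of 75560 bin pairs that hold a value. Contacts with 383 partner bins of 5 kb were followed in each map, after leaving out the viewpoint with 5 kb on either side and 5 bins that lack values in at least 1 map.

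FGF8 is a secreted growth factor of the apical ectodermal ridge (AER), the ectodermal rim that keeps the limb bud growing. Its expression in the ridge depends on enhancers scattered among and within the neighbouring genes on the centromeric side, several of them in introns of *Fbxw4*. Topologically associating domains (TADs) are stretches of chromosome in which DNA contacts itself more than the DNA outside, and a boundary is the narrow zone where one ends. *Fgf8* lies at the telomeric end of its TAD, and the next TAD on the centromeric side belongs to *Lbx1*, a transcription factor gene of migrating muscle precursors.

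The 6 genotypes were wild-type, homozygous *Dup*, *Inv1* and *Inv2*, and heterozygous *Dup* and *Inv1*. For the wild-type and for each homozygote, 3 biological replicates and 1 technical repeat were pooled. The heterozygous *Inv1* map pooled 3 biological replicates, and that of heterozygous *Dup* came from 1 library. The deposited maps merge the replicates of a genotype, so the spread between limb buds cannot be measured, no test was possible, and every interval given here covers counting error only. The labels give c57bl6.J as the background of the wild-type and G4 ESC, the embryonic stem cells that were edited, as that of all mutants, so background and genotype cannot be told apart. The mice came from edited stem cell clones by aggregation, and the lines were then crossed to C57BL/6. The genotype label of the heterozygous *Dup* library names an inversion, and the library was assigned from its title. Forelimb and hindlimb buds were taken whole, so the maps average over all cells and the small AER is not seen apart.

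*Dup* is a tandem duplication of 541 kb that holds *Lbx1*, *Btrc*, *Poll*, *Dpcd*, *Fbxw4* and the AER enhancers in its introns. It ends 24.7 kb centromeric of the *Fgf8* start. The study places another AER enhancer close to *Fgf8* itself, and the AER enhancers named below are those in *Fbxw4*. *Inv2* is an inversion of 460 kb with the same telomeric cut and a centromeric cut inside the *Lbx1* TAD. *Inv1* is an inversion of 123 kb around the interval between the TADs, from intergenic DNA beside *Btrc* to an intron of *Fbxw4* 83.3 kb from the *Fgf8* start. No cut touches *Fgf8*. The guide targets are shown because the profile of *Fgf8* breaks at these points, apart from the telomeric cut in *Dup*. There the stretch just centromeric of the cut (45770001 to 45790000) was at 0.996 of the wild-type as deposited and 0.823 with the map balanced. They were read from the mm9 genome in the 5′ to 3′ direction of the guide, with the PAM in capitals, and each matched the genome once.

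*Dup* and *Inv2*, telomeric, intergenic, minus strand, chr19:45792723-45792742: ttaaatttctccaagataagAGG

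*Dup*, centromeric, intergenic, minus strand, chr19:45251631-45251650: cccaggaatcgccgatgacaGGG

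*Inv1*, centromeric, intergenic, plus strand, chr19:45611034-45611053: ggcctcaatacacctccatgGGG

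*Inv1*, telomeric, intron of *Fbxw4*, plus strand, chr19:45734085-45734104: ggtgacaccagtattcctcgAGG

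*Inv2*, centromeric, intergenic, plus strand, chr19:45332272-45332291: ctgacatttagctgtgatcgGGG

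The profile of *Fgf8* rested on 67228 read pairs in the wild-type, 105068 in *Dup*, 130101 in *Inv1*, 134737 in *Inv2*, 15219 in heterozygous *Dup* and 91755 in heterozygous *Inv1*. The whole maps held 3350758 to 13101700 read pairs, and heterozygous *Dup* was the shallowest. Each profile was scaled to a total of 1000 units, so a value is the share of the contacts of *Fgf8* within the captured interval and a loss in one place raises the shares of the others. Distances and positions are those of the reference order unless the rearranged order is named.

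In the wild-type, *Fgf8* contacted its centromeric side far more than its telomeric side. At 20 to 100 kb the mean was 11.9 units per bin on the centromeric side and 4.90 on the telomeric side, a ratio of 2.42 (95% counting interval 2.35 to 2.51). At 100 to 200 kb, where the AER enhancer interval lies, the means were 8.42 and 2.03, and the ratio was 4.15 (3.98 to 4.33). It was lowest at 200 to 300 kb, at 1.44 (1.37 to 1.51), and highest at 400 to 570 kb, at 5.46 (5.16 to 5.77), where the *Lbx1* end of the neighbouring TAD lies. The profile was therefore lopsided at every distance compared.

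Of the wild-type profile, 34.7% (95% Wilson interval 34.4 to 35.1) fell in the *Fgf8* TAD and 18.1% (17.8 to 18.3) in the *Lbx1* TAD. The interval between the TADs with *Poll* and *Dpcd* took 5.95% (5.78 to 6.14), the boundary bins beside *Lbx1* 3.18% (3.05 to 3.32) and those telomeric of *Fgf8* 3.37% (3.24 to 3.51). The centromeric flank took 12.9% (12.7 to 13.2) and the telomeric flank 21.8% (21.4 to 22.1). The highest bin outside the margin held 36.1 units and lay 14.9 kb centromeric of the start. Farther out the profile had a broad rise to 11.7 units at 45650001, beside the AER enhancer interval. A narrow peak of 8.56 units followed at 45295001, beside *Lbx1*.

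That far peak stood above what the distance alone gives. The boundary bins beside *Lbx1* held 5.57 times the mean contact of all wild-type bin pairs at the same distance, against 1.72 times for the AER enhancer interval (10 bins from 45655001), 1.21 times for the *Fgf8* TAD as a whole and 0.55 times for the telomeric flank. The peak was present in all 6 maps. Its bins held 6.36 units each in the wild-type, 6.92 in *Dup*, 7.24 in *Inv1*, 6.85 in *Inv2*, 6.64 in heterozygous *Dup* and 6.46 in heterozygous *Inv1*. The highest ratio to wild-type was 1.137 (1.083 to 1.194), in *Inv1*, and the lowest 1.01 (0.963 to 1.07), in heterozygous *Inv1*. The *Dup* ratios turned with the scaling, from 1.087 as deposited to 0.902 balanced and 0.856 with the maps scaled jointly at each distance, and those of heterozygous *Dup* from 1.044 to 0.925 and 0.776. For the *Dup* maps, joint scaling was applied to the balanced maps. Joint scaling also took *Inv1* to 0.957, *Inv2* to 0.998 and heterozygous *Inv1* to 0.918. In *Inv2* and *Inv1* these bins keep their distance to *Fgf8*, and in *Dup* another copy is added farther away.

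**Figure D1:**
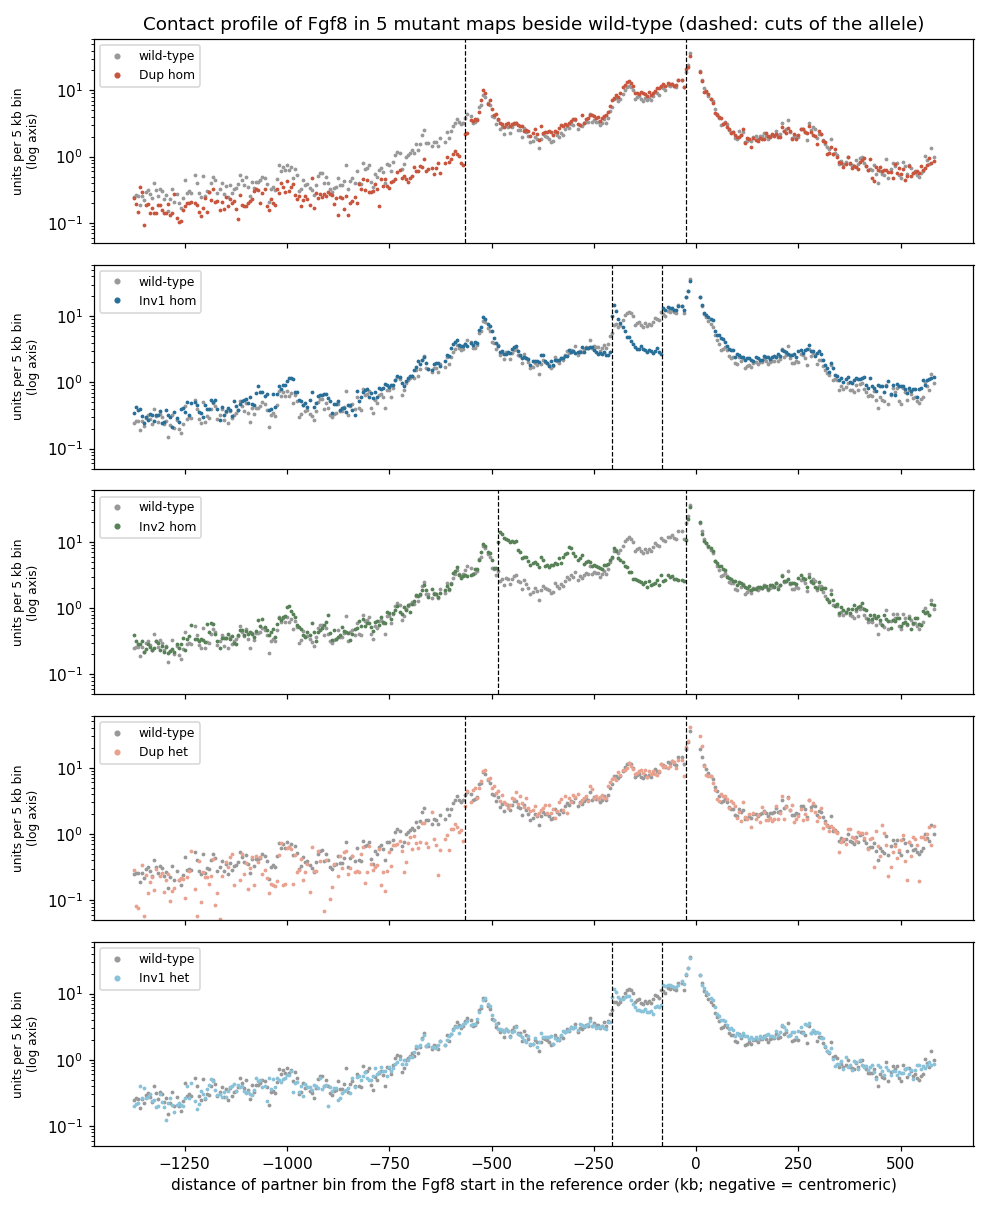
Contact profile of *Fgf8* in each mutant map (colour) beside the wild-type (grey), as units per 5 kb bin on a log axis against the distance of the bin from the *Fgf8* start in the reference order; dashed lines are the cuts of the allele. The profiles part from the wild-type at the cuts, but *Dup* shows no such step at its telomeric cut. On the telomeric side no window of 25 kb departs from the wild-type by 1.5-fold. In heterozygous *Dup*, 8 bins at 0 cannot be drawn, and values under 0.05 lie outside the axis.

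The AER enhancer interval separated the genotypes within the TAD of *Fgf8*. Its share of the profile was 9.64% in *Dup* (9.46 to 9.82), 8.81% in heterozygous *Dup* (8.37 to 9.28), 8.15% in the wild-type (7.94 to 8.36), 6.00% in heterozygous *Inv1* (5.84 to 6.15), 3.37% in *Inv1* (3.27 to 3.47) and 2.63% in *Inv2* (2.54 to 2.71). The counting intervals of neighbours in this order do not overlap, but those of heterozygous *Dup* and the wild-type nearly touch, and the order of the *Dup* maps against the wild-type turns with the scaling. The ratio to wild-type was 0.413 (0.398 to 0.430) in *Inv1* and 0.322 (0.309 to 0.336) in *Inv2*. It was 1.18 (1.15 to 1.22) in *Dup* as deposited, where the bins of the duplicated interval carry a higher total than the others, and 0.988 after the map was balanced to equal bin totals.

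The losses in *Inv1* and *Inv2* reached different distances from *Fgf8*. Between the telomeric *Inv1* cut and the telomeric *Inv2* cut (45735001 to 45790000), *Fgf8* held 12.0 units per bin in the wild-type, 13.1 in *Inv1* and 2.79 in *Inv2*. The ratio to wild-type there was 1.09 (1.06 to 1.12) in *Inv1* and 0.232 (0.223 to 0.243) in *Inv2*. Inside the *Inv1* interval (45650001 to 45730000) the values were 8.501 units per bin in the wild-type, 3.34 in *Inv1* and 2.60 in *Inv2*. So *Inv1* kept the nearest stretch of the TAD and lost the part with the AER enhancers, and *Inv2* lost both.

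The change in *Inv1* was a step at each cut. Across the telomeric cut, the bins that start at 45730001 and 45735001 held 11.4 and 10.8 units in the wild-type, against 2.67 and 13.1 in *Inv1*. At the centromeric cut the bins that start at 45605001 and 45615001 held 4.96 and 7.40 units in the wild-type and 2.90 and 14.8 in *Inv1*. From that bin the *Inv1* profile fell through 11.8, 9.02, 7.93 and 6.93 units in the bins up to the *Poll* and *Dpcd* start, which lies at 45635021 for *Poll* and 45635105 for *Dpcd*, to 4.82 at 45645001 and 2.85 at 45695001, inside the AER interval. The bins that the inversion brings next to *Fgf8* were thus higher, and the bins behind them lower, than in the wild-type.

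**Figure D2:**
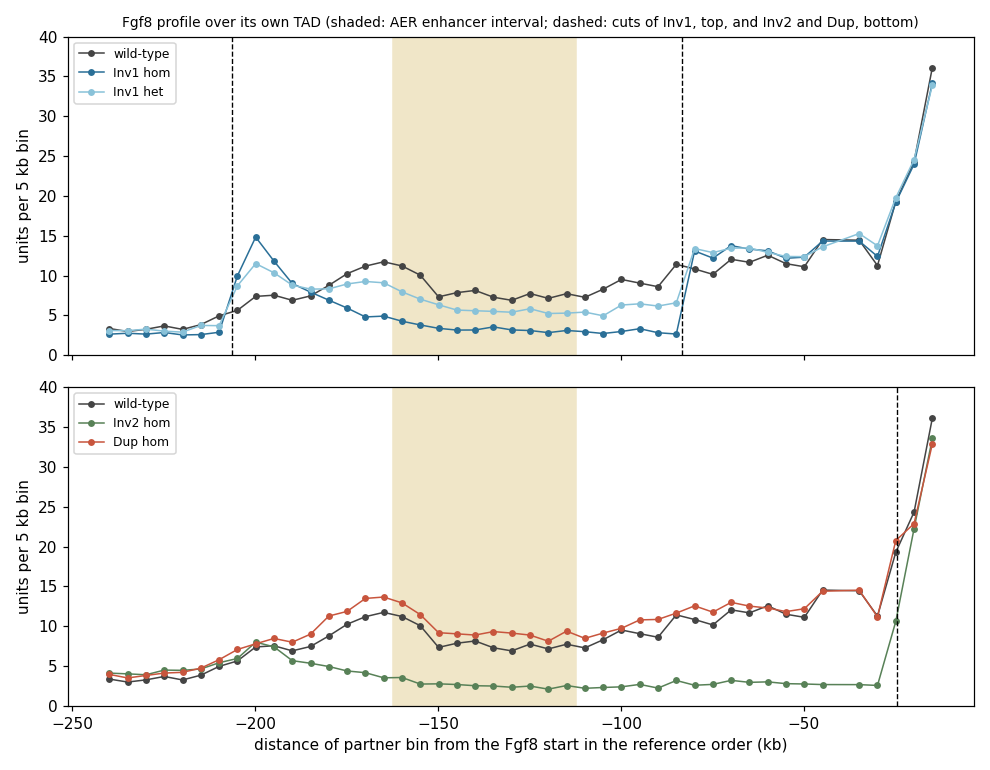
*Fgf8* profile over its own TAD in units per 5 kb bin, with wild-type, homozygous and heterozygous *Inv1* in the top panel and wild-type, *Inv2* and *Dup* in the bottom panel; the shading is the AER enhancer interval and dashed lines are the cuts. *Inv1* falls from 13.1 to 2.67 units across its telomeric cut and heterozygous *Inv1* runs between, while *Inv2* falls to 2.57 units centromeric of its cut.

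The inversion changed the distance of the AER interval little. The middle of the AER interval lies 137 kb from the *Fgf8* start in the wild-type and 152 kb in the inverted order, for which the wild-type distance decay gives a ratio of 0.928. The observed ratio was 0.445 times that (0.428 to 0.463). *Poll* and *Dpcd*, which encode a DNA polymerase and a protein needed for cilia, move from 182 to 107 kb for which distance gives 1.46 times the wild-type, but they held 20.8 units over 3 bins against 26.5, a ratio of 0.785 (0.743 to 0.828). In the inverted order the interval between the TADs lies between *Fgf8* and the AER enhancers. The same order holds in *Inv2*, with *Poll* at 327 kb and the middle of the AER interval at 372 kb. What part that order has in the values was not tested.

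Within the *Lbx1* TAD of *Inv1*, the last bins before the centromeric cut (45590001 to 45610000) fell to 0.693 of the wild-type (0.641 to 0.749), although their distance to *Fgf8* is unchanged. The *Lbx1* TAD as a whole held 18.8% of the profile against 18.1% in the wild-type. The starts of *Lbx1* and *Btrc* were at 1.26 (1.17 to 1.35) and 1.34 (1.18 to 1.53) times the wild-type. Both flanks stood at about the same level, 1.194 (1.164 to 1.224) on the centromeric and 1.20 (1.18 to 1.22) on the telomeric side. When *Inv1* and wild-type were instead scaled jointly at each distance, the centromeric flank was at 0.978, the telomeric flank at 1.17 and the AER interval at 0.413. The *Lbx1* TAD was then at 0.960 in place of 1.04. Its bins from 45305001 to 45330000, which hold the *Lbx1* start, were at 1.06 in place of 1.24. Joint scaling was not computed for the gene starts themselves, so the size of their rise depends on the scaling used.

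In *Inv2* the profile was exchanged between the TADs. The *Fgf8* TAD fell from 34.7% of the profile to 13.9% (13.7 to 14.1), and the *Lbx1* TAD rose from 18.1% to 38.8% (38.6 to 39.1). The ratios were 0.401 (0.393 to 0.408) and 2.15 (2.11 to 2.19). The bins telomeric of the cut held 22.2 and 33.6 units where the wild-type held 24.3 and 36.1. The stretch just centromeric of the cut (45770001 to 45790000) held 13.4 units per bin in the wild-type and 2.64 in *Inv2*, at a ratio of 0.197 (0.179 to 0.217).

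The gain in *Inv2* began at its centromeric cut. The bin that starts at 45325001, just outside the inversion, held 4.09 units against 3.14 in the wild-type, the bin with the cut held 10.1 against 3.62, and the next bin 14.3 against 2.59. The *Btrc* start, which belongs to the gene of an F-box protein that marks other proteins for degradation, comes to lie 131 kb from *Fgf8* instead of 379 kb, close to the distance that the AER interval has in the wild-type. It held 15.4 units over 3 bins against 5.37, a ratio of 2.87 (2.53 to 3.24). The start of *Lbx1*, outside the inversion at an unchanged 507 kb, held 19.1 units against 16.5, a ratio of 1.16 (1.08 to 1.24).

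Each ratio to wild-type in *Inv2* was set against the ratio that distance in the inverted order gives. The gain was below this expected ratio near the cut and above it farther away. Between the cut and the *Btrc* start the observed ratio of 3.43 was 0.587 times that expected from distance (0.566 to 0.609). At the *Btrc* start it was 1.03 times (0.911 to 1.16), and over the *Btrc* gene body 1.35 times (1.31 to 1.39). For the lost contacts, the AER interval was at 0.870 times the expected ratio (0.834 to 0.907) and the stretch next to the telomeric cut, now the farthest part of the inversion, at 2.35 times (2.14 to 2.59). The AER ratio to wild-type thus lay nearer to its expected ratio in *Inv2* than in *Inv1*. The expected ratio starts from the wild-type contact of the same bins and not from the mean at their new distance. In the wild-type, that contact was 1.72 times the mean at its distance for the AER interval. It was 1.58 times between the cut and *Btrc*. The values therefore do not place the contact in *Inv2* above or below that mean.

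**Figure D3:**
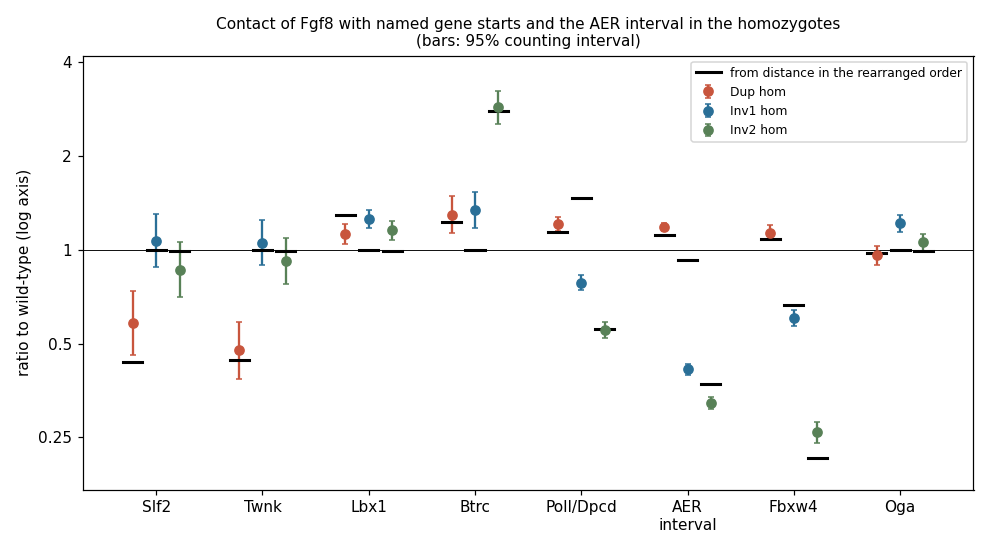
Ratio to wild-type of the contact of *Fgf8* with the starts of named genes (3 bins each) and with the AER interval in the homozygotes, on a log axis; points are observed with 95% counting intervals and black bars are the ratios expected from distance in the rearranged order. *Btrc* in *Inv2* is at 2.87 beside its bar, and the AER interval in *Inv1* is at 0.413, below its bar at 0.928.

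In *Dup* the profile fell on the far side of the duplication and changed little elsewhere. The centromeric flank outside the duplication (44440001 to 45250000) held 11.1% of the profile in the wild-type (10.8 to 11.3), 5.34% in *Dup* (5.21 to 5.48) and 6.27% in heterozygous *Dup* (5.89 to 6.66). The ratio was 0.483 (0.467 to 0.50) in *Dup*, 0.613 with the map balanced and 0.783 with joint scaling at each distance, so it stayed below 1 while its size depended on the scaling. The last whole bin outside the duplication, which starts at 45245001, held 3.24 units in the wild-type and 0.741 in *Dup*. The bin with the cut held 3.81 and 2.21, the next, at 45255001, 4.33 and 2.27, and that at 45265001 held 4.04 and 3.54, so the values came up to the wild-type over several bins. The added copy moves this flank 541 kb farther from *Fgf8*, and the wild-type decay over the new distances gives a ratio of 0.543, so the observed value was 0.890 times the expected as deposited (0.860 to 0.921). It was 1.13 times with the map balanced and 1.44 times with joint scaling, so whether the flank lay below or above the expected ratio turned with the scaling.

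Inside the duplicated interval the reads of both copies fall on the same bins and cannot be assigned to one of them. The *Fgf8* TAD was at 1.08 (1.06 to 1.09) and the *Lbx1* TAD at 1.17 (1.15 to 1.20) of the wild-type as deposited, and at 0.987 and 0.990 after balancing. By distance, the added copy should bring the AER interval to 1.11 and the boundary bins beside *Lbx1* to 1.30. The AER interval was at 1.06 times that expectation (1.03 to 1.10) and the boundary bins at 0.834 times (0.792 to 0.877) as deposited. Balancing takes out the copy number that the expectation holds, and these values were then 0.886 and 0.691, and 0.833 and 0.656 with joint scaling. The telomeric flank, which no copy moves, was at 0.960 (0.939 to 0.982), but at 1.22 after balancing.

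Among the other named genes, *Slf2* and *Twnk* of the centromeric flank were lower than in the wild-type in both *Dup* maps, *Fbxw4* was lower in both homozygous inversions, and *Oga* was within 1.5-fold of the wild-type in every map. *Slf2*, which takes part in DNA repair and is named *Fam178a* in the annotation, held 2.12 units in the wild-type, 1.23 in *Dup*, 2.26 in *Inv1*, 1.83 in *Inv2*, 1.09 in heterozygous *Dup* and 1.76 in heterozygous *Inv1*. *Twnk*, the mitochondrial DNA helicase gene annotated as *Peo1*, held 3.08, 1.46, 3.25, 2.84, 2.07 and 2.54 units in the same order of maps. These 2 starts rested on 149 and 205 wild-type read pairs, and in homozygous *Inv1* and *Inv2* their ratios did not differ from 1 beyond the counting intervals. In heterozygous *Dup* they rested on only 18 and 30 read pairs. Their ratios there were 0.513 (0.314 to 0.836) and 0.670 (0.457 to 0.983), and 0.585 and 0.766 with the map balanced. The ratio of *Slf2* in *Dup* was 0.582 as deposited and 0.728 balanced, which is within 1.5-fold.

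*Fbxw4*, an F-box gene whose start lies just telomeric of the *Inv1* cut so that its 3 bins span it, held 30.9 units in the wild-type, 35.1 in *Dup*, 18.6 in *Inv1*, 8.02 in *Inv2*, 30.5 in heterozygous *Dup* and 26.2 in heterozygous *Inv1*. Both homozygous inversions were below every other map. The *Inv1* ratio of 0.603 became 0.735, within 1.5-fold, when recovered read pairs were used. *Oga*, annotated as *Mgea5*, encodes the enzyme that removes O-GlcNAc from proteins and lies on the telomeric side at 40.8 kb. It held 19.5, 18.7, 23.6, 20.6, 18.0 and 22.8 units in the same order, a range of ratios from 0.923 (0.821 to 1.04) in heterozygous *Dup* to 1.21 (1.14 to 1.29) in *Inv1*.

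**Figure D4:**
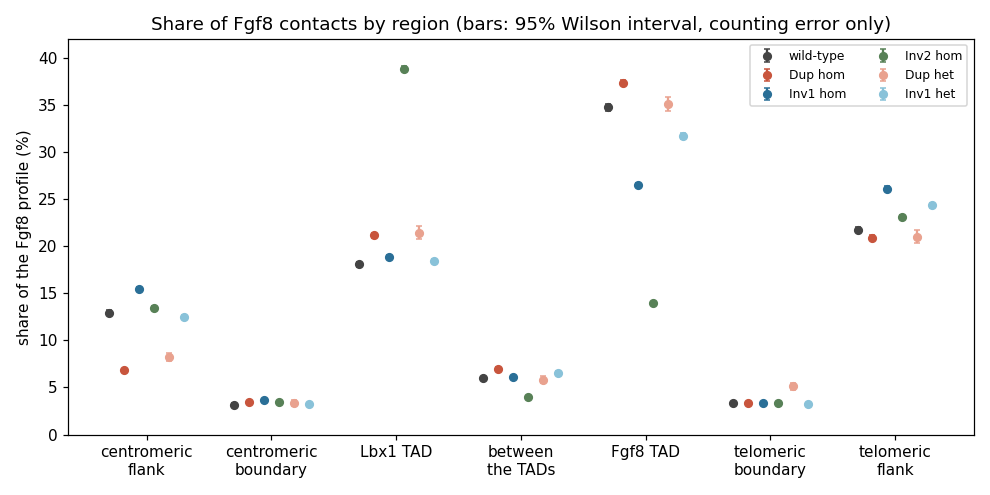
Share of the *Fgf8* profile, in percent, in the regions that divide the captured interval, for each of the 6 maps, with 95% Wilson intervals for counting error. *Inv2* stands apart in both TADs (38.8% and 13.9%), *Dup* and its heterozygote in the centromeric flank (6.85% and 8.23%), and *Inv1* is lowest but one in the *Fgf8* TAD (26.5%).

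In windows of 25 kb, with 50 or more wild-type read pairs and a fold of 1.5 as the threshold, 77 windows could be compared. In *Inv2*, 9 windows were higher and 7 lower, and all 16 were among the 19 windows inside the inversion. Over all viewpoints of 10 kb in the map, 9.22% of windows were higher and 2.4% lower, against 11.7% and 9.09% for *Fgf8*. In *Inv1*, 3 windows were lower, all inside the inversion, beside 1.08% over all viewpoints, and 3 were higher, all in the centromeric flank, beside 4.31%. In *Dup*, 28 windows were lower, all among the 32 centromeric of the duplication, beside 16.1% over all viewpoints, and 0 were higher, beside 8.45%. With the *Dup* map balanced, 12 windows were lower. In the maps as deposited, the share of lower windows was thus above that of all viewpoints in each homozygote. That of higher windows was near it in both inversions. The share over all viewpoints was not computed for the balanced *Dup* map, so its 12 windows cannot be set against one. All viewpoints include those inside the rearranged intervals, and neighbouring viewpoints overlap.

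The lowest windows of *Dup* and both extremes of *Inv2* lay at or near the cuts. In *Dup* the lowest were 45225001 to 45250000, at 0.297 (0.270 to 0.326), and the neighbours that start at 45175001 and 45150001, at 0.388 and 0.397, and the highest 3 reached 1.221 to 1.249 in the middle of the duplication, at 45400001 to 45500000. In *Inv2* the highest were at 45350001, 45325001 and 45375001, with 3.77 (3.52 to 4.04), 3.71 and 2.83. The lowest were at 45750001, 45725001 and 45700001, with 0.231 (0.217 to 0.246), 0.262 and 0.290, so the loss deepened towards the cut.

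In *Inv1* the lowest windows were at 45700001, 45650001 and 45675001, with 0.362 (0.340 to 0.385), 0.406 and 0.427. The highest were at 44725001, 44825001 and 44750001 around *Pax2*, a kidney and eye transcription factor gene, with 1.70 (1.41 to 2.05), 1.60 and 1.55. Those 3 rested on 132 to 199 wild-type read pairs. Under joint scaling the distal centromeric flank was at 1.04 in *Inv1* in place of 1.31.

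**Figure D5:**
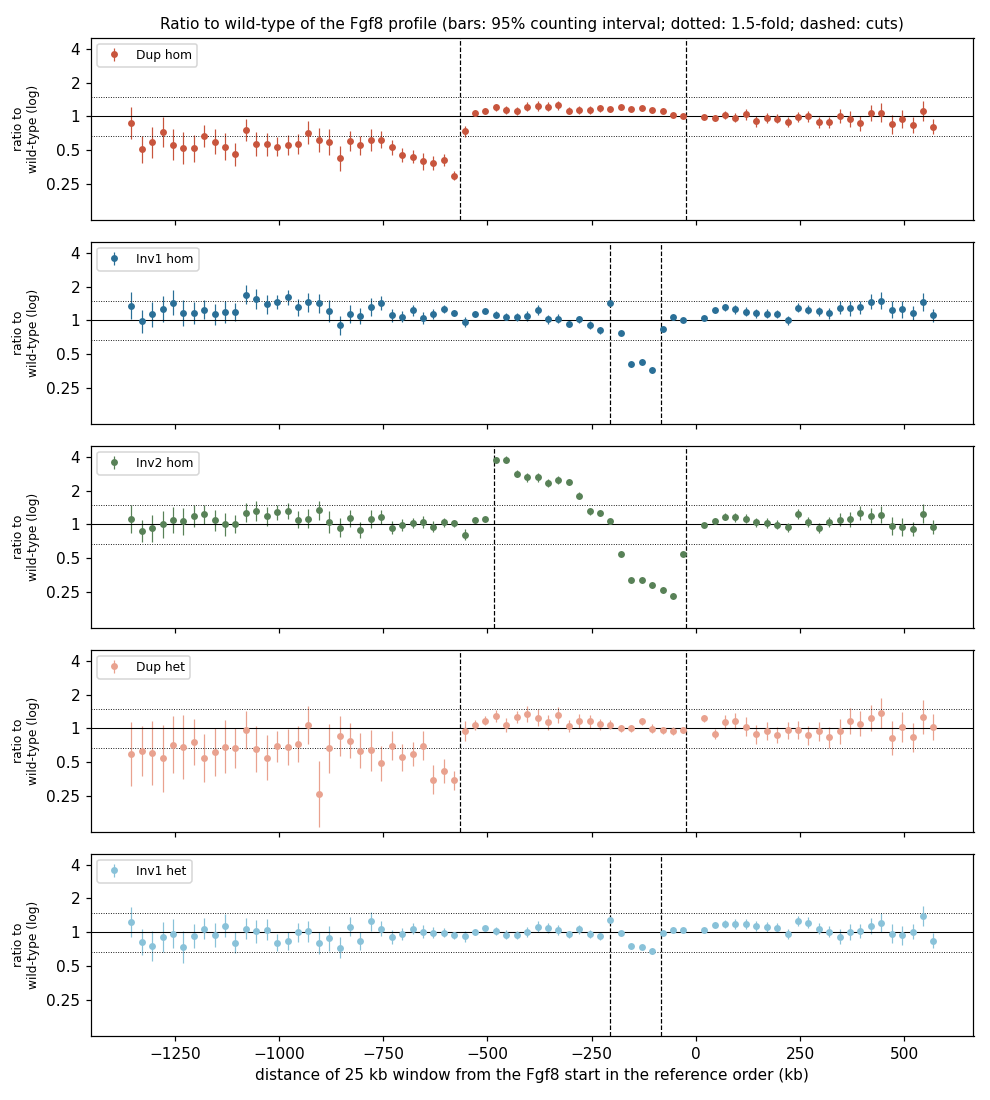
Ratio to wild-type of the *Fgf8* profile in 25 kb windows on a log axis, against distance from the *Fgf8* start in the reference order, with 95% counting intervals, dotted lines at 1.5-fold and dashed lines at the cuts. In *Inv2* the ratio runs from 3.77 at one end of the inversion to 0.231 at the other, in *Dup* the low windows lie centromeric of the duplication, and in *Inv1* the low windows lie between the cuts.

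The heterozygous *Inv1* map lay between wild-type and homozygote where the homozygote changed most. For the AER interval it had gone 0.450 of the way (0.409 to 0.491) and for the whole *Fgf8* TAD 0.369 of the way (0.322 to 0.416). Its ratio to wild-type in the AER interval was 0.736 as deposited and 0.681 with joint scaling. The homozygote was at 0.413 under both, so the position in the AER interval depends on the scaling. For the centromeric flank the heterozygote lay beyond the wild-type, away from the homozygote, at -0.177 (-0.324 to -0.030). For the telomeric flank it was at 0.593 (0.516 to 0.670). In the bins next to the centromeric cut it held 11.52 units at 45615001, between 7.40 and 14.8. None of its 77 windows passed the fold in either direction, beside 1.34% higher and 0.61% lower over all viewpoints, and its lowest, at 45700001, was at 0.679 (0.641 to 0.719). Inside the inversion its highest window, at 45600001, was at 1.295 (1.227 to 1.367).

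As deposited, the heterozygous *Dup* map was nearer to the homozygote in the centromeric flank but not in the *Fgf8* TAD. For the flank it had gone 0.773 of the way (0.698 to 0.848), at a ratio to wild-type of 0.636 (0.599 to 0.677) as deposited and 0.691 balanced. For the *Fgf8* TAD it stood at 0.126 of the way (-0.189 to 0.440) and for the AER interval at 0.447 (0.131 to 0.764), where the homozygote was at 1.08 and 1.18 of the wild-type. With the maps balanced, the *Fgf8* TAD was at 0.987 in *Dup* and 0.958 in heterozygous *Dup*, and the AER interval at 0.988 and 0.965. The heterozygote was then no nearer to the wild-type than the homozygote, so these positions turn with the scaling. Of its windows 18 were lower, all centromeric of the duplication, beside 3.1% over all viewpoints, and 0 were higher, beside 11.4%. With the map balanced, 9 were lower. Its lowest window, at 44900001, was at 0.263 (0.134 to 0.516) but held only 9 read pairs, and the next lowest, at 45225001 beside the cut, was at 0.345 (0.283 to 0.421), near the 0.297 of the homozygote. The profile rests on a single library with 16 read pairs in the median partner bin, and the part of that library in the value cannot be told apart from the genotype. The same map had 1.52 times the wild-type contact (1.37 to 1.68) in the bins telomeric of *Fgf8* (45825001 to 45835000), where the other mutants were at 0.966 to 1.01 as deposited. With the maps balanced, heterozygous *Dup* was at 1.797 and *Dup* itself at 1.33, and with recovered read pairs, without the bin factors, heterozygous *Dup* was at 0.845.

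The 2 bins of the viewpoint gave similar profiles. The AER interval took 8.08% of the contacts of the bin with the 3′ end and 8.22% of those of the bin with the start in the wild-type, 3.32% and 3.41% in *Inv1*, and 2.62% and 2.64% in *Inv2*. The bin with the start, which lies farther from the TAD, had the smaller share in the *Fgf8* TAD, 32.0% against 37.4% in the wild-type, and the larger in the telomeric flank, 22.58% against 20.96%. In every map the difference between the bins was in the same direction for both regions.

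Over the 25 kb windows of the 5 mutant maps, the protein-coding genes whose own contact changes were most like those of *Fgf8* all lay on its telomeric side. They were *Kcnip2* (start at 45890551), with a Pearson r of 0.677 over 350 values, *Hps6* (46077968), with 0.616 over 340, and *9130011E15Rik* (46072978), with 0.554 over 335. Genes within 50 kb of *Fgf8* were left out. These values describe log2 ratios that share the same maps and the same wild-type library pool, and they carry no test. For *Kcnip2*, r was 0.894 in *Dup*, 0.815 in *Inv2*, 0.442 in *Inv1*, 0.431 in heterozygous *Dup* and 0.237 in heterozygous *Inv1*. The viewpoints of *Hps6* and *9130011E15Rik* share a bin, so their values are not independent. For these genes r was 0.897 and 0.849 in *Dup* and 0.749 and 0.720 in *Inv2*. It was 0.371 and 0.286 in heterozygous *Dup*, 0.277 and 0.172 in *Inv1*, and 0.098 and 0.067 in heterozygous *Inv1*.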

How the data were processed

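Capture Hi-C of E11.5 forelimb and hindlimb buds was analysed from 6 merged maps of 20 samples. Per the study's methods and the submitters' processing notes, the authors mapped the reads to mm9 with HiCUP and Bowtie2 2.4.2, removed duplicates, merged the replicates and binned read pairs at 5 kb. The deposited values are contact signal, Knight-Ruiz balanced with Juicer tools 1.19.02 (wild-type and inversions) or LOIC normalized, which keeps the higher total of duplicated bins (*Dup*). Reads were mapped to the reference order, so contacts across a junction appear at reference positions. The deposited subtraction maps were not used. Expression data were not analysed here.

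From the signal, whole read pairs were recovered for 100% of values (within 0.01), using Python 3.11.15 and NumPy 2.4.6, with figures by matplotlib 3.10.9. Totals were 3350758 in heterozygous *Dup*, 7804215 in heterozygous *Inv1*, 7867931 in wild-type, 11615891 in *Inv1*, 12790852 in *Inv2* and 13101700 in *Dup*. They set the 95% Wilson intervals of shares and counting intervals of ratios, which narrow with depth and cover counting error only. Expected ratios used the wild-type distance decay over distances in the rearranged order. The recovery of read pairs, the regional ratios and the window calls were first tested on simulated data with known changes. The expected ratios in the rearranged order, joint scaling, heterozygote positions, side ratios and correlations between viewpoints were not tested in this way. In the simulation the regional ratios were taken relative to the unchanged regions, which the ratios reported here are not. Only maps balanced to equal bin totals were simulated, so LOIC normalized maps were not covered. TADs and the AER interval were read by eye from the study's drawing and are uncertain by at least 1 bin. Genes came from GENCODE on mm9, and guides were located in the same genome. Named were 9 genes of the locus, the 3 genes most like *Fgf8* as viewpoints, and per mutant map the 3 highest and 3 lowest windows with 50 or more wild-type read pairs. *Pax2* was named after its values were seen. The viewpoint, regions and genes were chosen with earlier results of these data known. The alternatives were another viewpoint width, margin, region ends, windows, folds, read pair minimum, normalization, scaling between maps and distance decay.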

Additional observations from a re-analysis of the deposited data

How the results depend on the processing

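Of 19 ratios to wild-type past 1.5-fold (regions and gene starts), 72 of 78 recomputed values stayed past it, 6 did not, and 1 turned direction. The value that turned was the contact of heterozygous *Dup* with the bins telomeric of *Fgf8*, at 0.845 with recovered read pairs. The ratio of the AER interval in *Inv1* and *Inv2* stayed within its counting interval under every alternative, and so did its observed over expected value in *Inv1*. The other values no longer past 1.5-fold were the centromeric flank in *Dup* (0.755, joint scaling) and heterozygous *Dup* (0.691, balanced), the telomeric boundary in heterozygous *Dup* (1.43, viewpoint of 1 bin), the *Fbxw4* start in *Inv1* (0.735, recovered read pairs) and the *Slf2* start in *Dup* (0.728, balanced). Where no construction is named, the cause was not tested.

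With 25 kb left out beside the viewpoint, which removes part of the total, the AER interval took 9.53% of the profile in wild-type, 11.2% in *Dup*, 3.94% in *Inv1*, 2.99% in *Inv2*, 10.5% in heterozygous *Dup* and 7.03% in heterozygous *Inv1*, and the *Lbx1* TAD in *Inv2* was at 2.09 of wild-type. With regions shortened by 1 bin at both ends, which takes bins away, these were 6.25%, 7.41%, 2.63%, 2.01%, 6.87%, 4.67% and 2.23. With recovered read pairs the shares were 8.43% in wild-type, 10.5% in *Dup*, 3.61% in *Inv1*, 9.86% in heterozygous *Dup* and 6.48% in heterozygous *Inv1*. Its ratios were then 1.246 in *Dup*, 1.17 in heterozygous *Dup* and 0.769 in heterozygous *Inv1*. The centromeric flank in *Dup* was at 0.507, the position of heterozygous *Inv1* for the AER interval was 0.404, 1 window of heterozygous *Dup* was higher and 2 of heterozygous *Inv1* were lower. With the 1 bin that holds the start as viewpoint, the AER interval took 9.34% in *Dup* and 5.73% in heterozygous *Inv1*, the centromeric flank in heterozygous *Dup* was at 0.597, the *Lbx1* TAD in *Inv2* at 2.05, 6 windows of *Inv1* were higher and 2 of heterozygous *Inv1* were lower.

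With the *Dup* maps balanced, which takes the added copy number out, the AER interval took 8.05% in *Dup* and 7.86% in heterozygous *Dup*, at ratios of 0.988 and 0.965, the centromeric flank was at 0.619 and 0.691, 12 and 9 windows were lower, and 1 window of heterozygous *Dup* was higher. Joint scaling at each distance is set by bin pairs outside the rearranged interval, many of which cross the duplication at long distance. In the *Dup* maps it was applied after balancing, so it too takes the added copy number out. It gave 0.755 for the centromeric flank in *Dup*, 0.929, 0.867 and 0.681 for the AER interval in *Dup*, heterozygous *Dup* and heterozygous *Inv1*, and 2.08 for the *Lbx1* TAD in *Inv2*. With the decay of the *Inv2* map itself, the AER interval was at 0.786 of expected, the stretch between the cut and *Btrc* at 0.695 and that next to the telomeric cut at 1.85. Setting the balanced and jointly scaled *Dup* values against the expected ratio was chosen after seeing the data: the AER interval turned from above the expected to 0.886 and 0.833 of it, and the flank outside the duplication from below it to 1.13 and 1.44 times.

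The share over all viewpoints was computed only for windows of 25 kb at a fold of 1.5 on the deposited maps. Window counts under any other setting have no such share beside them and show only how the counts move. At a fold of 2, 8 windows were lower in *Dup*, 5 lower in heterozygous *Dup* and 0 higher in *Inv1*. At a fold of 5/4, 25 windows were higher in *Inv1*, 17 higher in *Inv2*, 6 higher and 29 lower in heterozygous *Dup*, and 4 higher and 6 lower in heterozygous *Inv1*. With windows of 50 kb, of which there are fewer, 15 were lower in *Dup*, 1 higher in *Inv1*, 5 higher and 3 lower in *Inv2*, and 11 lower in heterozygous *Dup*.

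No paired analysis was possible because the replicates of each genotype are merged in the deposited maps, and for the same reason no replicate could be left out. A margin of 25 kb leaves no bin of the telomeric boundary, so that value could not be computed there. Depth limits heterozygous *Dup* most, with 15219 read pairs in the profile, and its windows in the centromeric flank have the widest intervals.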

Other observations

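The balance of the contacts of *Fgf8* between its centromeric and telomeric sides differed between the rearrangements. At 20 to 100 kb of the reference order, the centromeric over the telomeric mean was 2.42 in the wild-type, 2.62 in *Dup* (95% counting interval 2.55 to 2.69), 1.85 in *Inv1* (1.81 to 1.89) and 0.622 in *Inv2* (0.604 to 0.641). *Inv2* was the map in which the telomeric side held more. At 100 to 200 kb, with the AER enhancers, the ratio was 4.15 in the wild-type, 3.16 in heterozygous *Inv1*, 2.24 in *Inv1* and 1.73 in *Inv2*, against 5.04 in *Dup* and 4.60 in heterozygous *Dup*. At 300 to 400 kb, over *Btrc*, *Inv2* stood at 4.17 (4.01 to 4.34) against 1.80 in the wild-type (1.69 to 1.92). These values are not independent of the regional shares, since they are drawn from the same profiles.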
